A study of Mus musculus with 8 samples.

Results

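The genes described here are 7 members of a linked set of transcription regulators in developing T cells: the E protein genes Tcf3, Tcf12 and Tcf4, the inhibitor genes Id1, Id2 and Id3, and Rora, which encodes the nuclear receptor RORalpha. They were chosen by name from the 53465 genes in each deposited count table, through the GENCODE M21 symbols of their Ensembl identifiers. No expression value was part of the rule, but earlier results of these data were known when the genes were chosen. RNA came from sorted live CD4+ CD8+ (double-positive) thymocytes of NOD/ShiLtJ (NOD) mice, which are prone to autoimmune diabetes, and of C57BL/6J mice. The labels name no engineered allele or treatment for either strain, and they give neither age nor sex. There were 8 libraries, 4 per strain, made from total RNA with a stranded low-input kit. Titles give each a B number and a T number; the 2 libraries of each B number (libraries 1 and 2, by T number) were added together, which left 2 samples per strain, called samples 1 and 2. Whether B numbers stand for different mice is not stated, so a p-value here reflects the variation among these 4 samples and no more, and part of that may be technical.

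E proteins are basic helix-loop-helix activators that pair with each other through the helix-loop-helix and bind E boxes, short DNA elements read CANNTG. Id proteins carry the helix-loop-helix but lack the basic region that touches DNA, so a dimer of an Id with an E protein cannot bind an E box. In the thymus, E2A (Tcf3) and HEB (Tcf12) promote recombinase expression and hold cells at the double-positive stage, and Id3 rises after receptor signals and relieves that hold. ROR receptors act on AGGTCA-like elements, among them those of circadian clock genes.

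RefSeq promoter windows of the GRCm38.p6 build ran from 250 bases before to 50 after a start site. They were examined for 5 of the 7 genes (Tcf3, Tcf12, Id2, Id3 and Rora). Promoters of Id1 and Tcf4 were not examined. An Id promoter with an E box, one without, and that of an E protein gene are printed 5′ to 3′ with every CANNTG match in capitals. They lie at chr12:25096043-25096342 (Id2, minus strand), chr4:136143572-136143871 (Id3, plus strand) and chr10:80433586-80433885 (Tcf3, minus strand).
Id2: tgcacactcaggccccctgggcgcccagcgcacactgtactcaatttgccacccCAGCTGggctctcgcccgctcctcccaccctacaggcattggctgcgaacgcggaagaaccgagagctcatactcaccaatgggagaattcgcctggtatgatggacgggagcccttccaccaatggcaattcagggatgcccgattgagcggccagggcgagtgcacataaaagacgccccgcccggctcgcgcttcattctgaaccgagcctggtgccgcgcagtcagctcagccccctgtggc
Id3: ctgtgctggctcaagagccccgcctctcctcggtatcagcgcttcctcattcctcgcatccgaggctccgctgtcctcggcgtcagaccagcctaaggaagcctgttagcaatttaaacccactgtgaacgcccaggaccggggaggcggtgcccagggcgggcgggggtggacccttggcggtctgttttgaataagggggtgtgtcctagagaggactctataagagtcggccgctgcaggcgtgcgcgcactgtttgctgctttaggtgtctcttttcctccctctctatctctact
Tcf3: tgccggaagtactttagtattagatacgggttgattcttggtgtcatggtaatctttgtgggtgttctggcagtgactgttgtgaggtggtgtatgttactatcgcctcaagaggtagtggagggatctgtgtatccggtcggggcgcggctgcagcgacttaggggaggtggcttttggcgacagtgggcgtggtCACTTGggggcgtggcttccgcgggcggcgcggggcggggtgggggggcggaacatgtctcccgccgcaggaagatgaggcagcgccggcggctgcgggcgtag
The Id2 and Tcf3 windows held 1 E box each, the 3 Tcf12 windows held 1, 2 and 1, and the Id3 and Rora windows held 0. The pattern reads the same way on both strands, and 72.3% of 32851 promoter windows of this length held at least 1. These matches describe letters in a short window and say nothing about binding.

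The libraries held 23.533 to 30.371 M reads in genes for NOD and 8.527 to 15.702 M for C57BL/6J. All 12 markers of the double-positive stage were detected, with a summed level of 18777.1 to 22928.8 CPM (gene counts scaled to library size, with TMM factors) in NOD libraries and 24818.6 to 27889.4 CPM in C57BL/6J libraries, so every NOD library lay lower in the sum, although none of the 12 passed the strain test. Rag1, Rag2, Dntt, Cd8b1 and Satb1 lay lower in all NOD libraries, while Ptcra, at 45.4 to 52.6 CPM in NOD and 19.8 to 36.3 CPM in C57BL/6J, lay higher. NOD sample 1 stood apart in cell cycle genes. A list of 20 proliferation genes summed to 1378.6 and 1002.2 CPM in its libraries and 5005.3 and 5256.9 CPM in those of NOD sample 2, against 3670.1 to 4956.3 CPM in C57BL/6J libraries. Estimates of the 7 genes that moved with this sample are given with and without it. Reads assigned to no gene made up 46.561% to 59.081% in NOD libraries and 39.979% to 53.936% in C57BL/6J libraries. They are called reads outside genes below, although they may include reads in introns.

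None of the 7 genes differed between the strains by the test used. The threshold was an adjusted p under 0.05 in the quasi-likelihood test of edgeR, fitted to all 17291 genes with enough counts, of which 3.68% passed (1.91% higher and 1.78% lower in NOD). All 7 genes had enough counts, and 0 of 7 passed. At an unadjusted p under 0.05, 0 of 7 were found in edgeR, against 13.1% of all tested genes, and DESeq2 called 0 of 7. Their median log2 fold change (NOD over C57BL/6J, as throughout) was 0.07, against 0.02 for all tested genes, and their median absolute log2 fold change was 0.15, against 0.27. The 4 NOD libraries overlapped the 4 C57BL/6J libraries for each of the 7, while 17.0% of tested genes had libraries that did not overlap (8.20% with NOD above and 8.84% with NOD below).

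**Figure D1:**
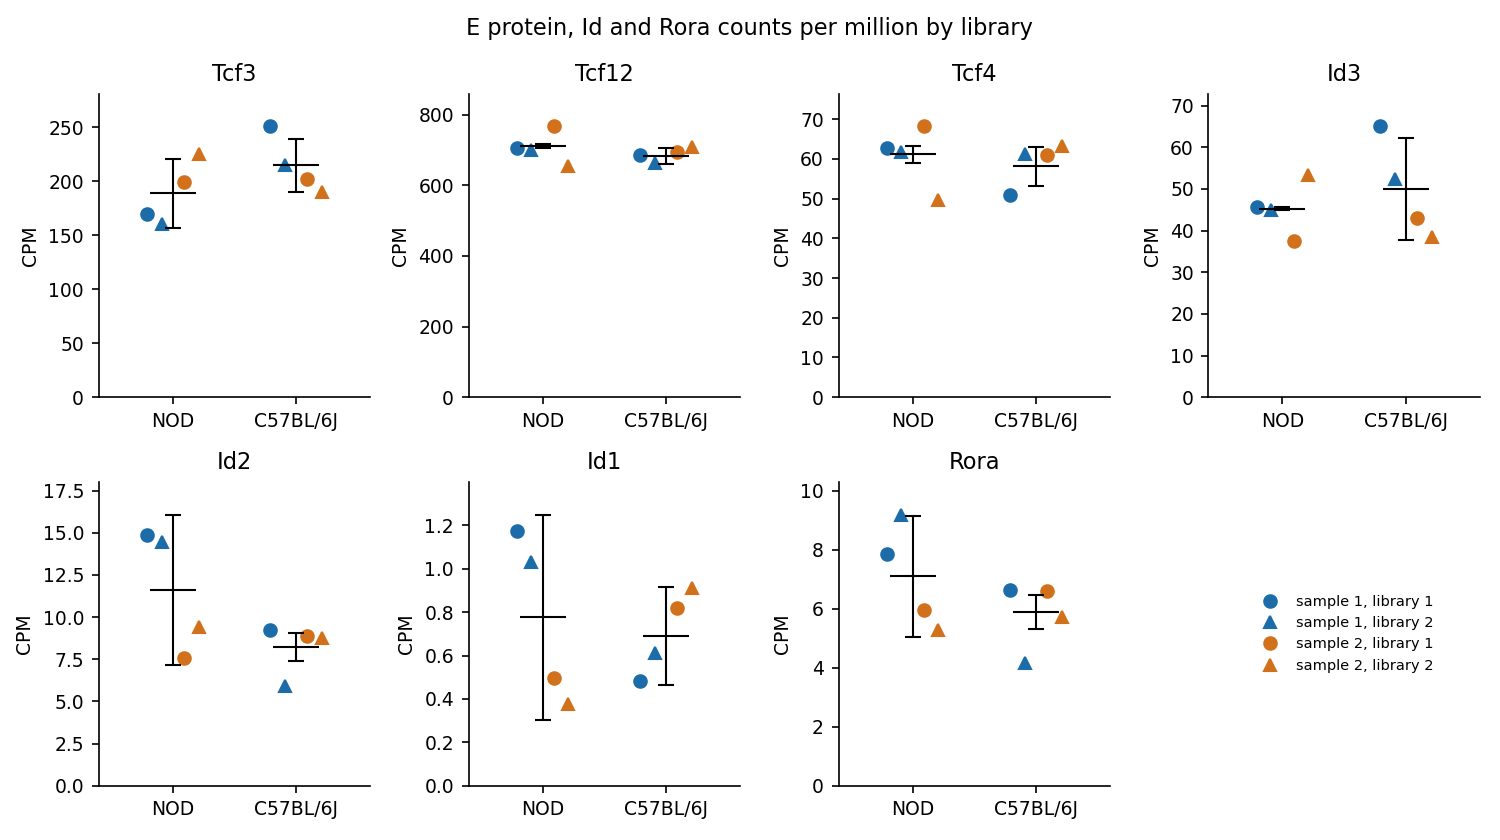
CPM of each gene (vertical axes, from 0) in the 4 NOD and 4 C57BL/6J libraries. Colours mark summed samples 1 and 2, circles and triangles the 2 libraries of a sample, and bars the mean ± SD of the 2 summed samples. The libraries of the strains overlap in every panel, and both libraries of NOD sample 1 lie highest for Id2, Id1 and Rora.

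Tcf12, which encodes HEB, the most heavily read of the E protein genes in these tables, was the steadiest. Its level was 707.3 and 714.5 CPM in NOD samples 1 and 2, against 666.2 and 697.9 CPM in C57BL/6J samples 1 and 2. The NOD samples were both slightly higher, but their libraries spanned 653.3 to 767.5 CPM and enclosed the C57BL/6J range of 661.6 to 707.3 CPM. The resulting log2 fold change was 0.06 ± 0.16 SE, with a 95% interval of -0.31 to 0.43 (adjusted p = 0.934, edgeR), which corresponds to a NOD level between 0.808 and 1.34 times the C57BL/6J level.

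Tcf3 encodes E12 and E47, splice products that differ in the DNA-contacting exon and that gene counts do not separate. It stood at 166.1 and 211.5 CPM in NOD samples 1 and 2, against 231.7 and 197.5 CPM in C57BL/6J samples 1 and 2. NOD sample 1 was lowest and C57BL/6J sample 1 highest, so the strains overlapped through their second samples. Tcf3 had a log2 fold change of -0.18 ± 0.18 SE (95% interval -0.60 to 0.23, adjusted p = 0.802, edgeR), and without NOD sample 1 it was -0.02.

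Tcf4 encodes E2-2, the E protein known for directing plasmacytoid dendritic cells. It was at 62.6 and 59.65 CPM in NOD samples 1 and 2, against 54.64 and 61.65 CPM in C57BL/6J samples 1 and 2. This gave a log2 fold change of 0.07 ± 0.17 SE (95% interval -0.31 to 0.45, adjusted p = 0.924, edgeR). In the dendritic cell list, 8 markers summed to 10.6 to 13.1 CPM in NOD libraries and 6 to 7.99 CPM in C57BL/6J libraries, with the plasmacytoid marker Siglech at 1.62 to 2.75 CPM and 0.508 to 1.28 CPM, so NOD libraries were higher in both. In the B cell list, 8 markers summed to 257.4 to 425.6 CPM in NOD libraries and 340.8 to 412.8 CPM in C57BL/6J libraries, most of it Ighm. Within that list Igkc, at 9.43 to 60.3 CPM in NOD and 0.407 to 4.41 CPM in C57BL/6J, and Ms4a1, at 0.529 to 0.891 CPM and 0.114 to 0.441 CPM, lay higher in every NOD library. No tested marker of these 2 lists passed (4 of 8 dendritic and 8 of 8 B cell markers were tested), and their part in the Tcf4 level was not tested. Of the other cell types followed, 1 of 8 tested macrophage markers, Csf1r (2.59 to 5.07 CPM in NOD and 0.228 to 0.881 CPM in C57BL/6J), and 1 of 2 tested fibroblast markers, Col1a2 (1.02 to 1.93 CPM and 0 to 0.0801 CPM), passed the test, both higher in NOD (adjusted p = 0.0233 and 0.00959, edgeR). Their lists summed to 13.6 to 28.3 and 2.23 to 4.99 CPM in NOD libraries. In C57BL/6J libraries the sums were 9.7 to 16.9 and 1.94 to 3.44 CPM, which overlapped those of NOD. Within the fibroblast list Pdgfrb leaned the other way, at 0.601 to 1.98 CPM in NOD and 1.83 to 3.36 CPM in C57BL/6J. The part of macrophages and fibroblasts in the levels of the 7 genes was not tested. In bulk RNA, fewer cells of a type and less RNA per cell cannot be told apart.

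Id3, the Id gene induced by pre-receptor and receptor signals in thymocytes, was the leading Id transcript. It measured 45.51 and 45 CPM in NOD samples 1 and 2, against 58.66 and 41.34 CPM in C57BL/6J samples 1 and 2. The NOD samples lay between the C57BL/6J samples. Within NOD sample 2 the libraries were at 37.59 and 53.43 CPM, a wider gap than that between the strain means of 45.25 and 50 CPM. The log2 fold change was -0.14 ± 0.21 SE (95% interval -0.61 to 0.32, adjusted p = 0.869, edgeR), and it was 0.13 without C57BL/6J sample 1.

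Id2, known as a requirement of innate lymphoid and NK cells and of effector T cells, had the largest estimated difference of the 7. It was at 14.78 and 8.449 CPM in NOD samples 1 and 2, against 7.641 and 8.836 CPM in C57BL/6J samples 1 and 2. NOD sample 1 alone was high, at 14.9 and 14.47 CPM in its libraries, and NOD sample 2 lay within the C57BL/6J range. The log2 fold change was 0.49 ± 0.33 SE (95% interval -0.25 to 1.24, adjusted p = 0.647, edgeR). Without NOD sample 1 it was 0.04, and without NOD sample 2 it was 0.84 (adjusted p = 0.230, edgeR).

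Id1, a target of BMP signalling in many tissues, was close to the limit of detection, with 78 counts in all NOD libraries and 33 in all C57BL/6J libraries. Its level was 1.111 and 0.441 CPM in NOD samples 1 and 2, against 0.53 and 0.8511 CPM in C57BL/6J samples 1 and 2. The log2 fold change was 0.15 ± 0.61 SE, and the interval of -1.23 to 1.54 leaves room for differences over 2-fold in either direction (adjusted p = 0.957, edgeR). Without NOD sample 1 the estimate was -0.65 and without NOD sample 2 it was 0.67. The 5 endothelial markers summed to 121.6 to 138.6 CPM in NOD libraries and 133 to 162.3 CPM in C57BL/6J libraries, nearly all of it Pecam1, with Emcn at 0 in every library. The fourth Id gene, Id4, had 2 counts in NOD libraries and 0 in C57BL/6J libraries and was not tested.

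Rora, which is known for driving innate lymphoid cell fate and the clock gene Arntl, was low in these cells. It was at 8.553 and 5.644 CPM in NOD samples 1 and 2, against 5.477 and 6.282 CPM in C57BL/6J samples 1 and 2. As for Id2, both libraries of NOD sample 1 lay above every other library, at 7.854 and 9.189 CPM. The log2 fold change was 0.27 ± 0.34 SE (95% interval -0.49 to 1.03, adjusted p = 0.852, edgeR), and without NOD sample 1 it was -0.06. The innate lymphocyte list, 6 markers, summed to 20.7 to 26.4 CPM in NOD libraries and 14.5 to 22.8 CPM in C57BL/6J libraries, most of it Gzma. Ncr1 was at 0 to 0.227 CPM in NOD and 0 to 0.315 CPM in C57BL/6J, Klrb1c lay higher in every NOD library, at 0.529 to 1.49 CPM against 0.102 to 0.342 CPM, and neither of its 2 tested genes passed. Its part in the Id2 and Rora levels was not tested. Another ROR gene, Rorb, had 5 counts in NOD libraries and 0 in C57BL/6J libraries and was not tested.

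**Figure D2:**
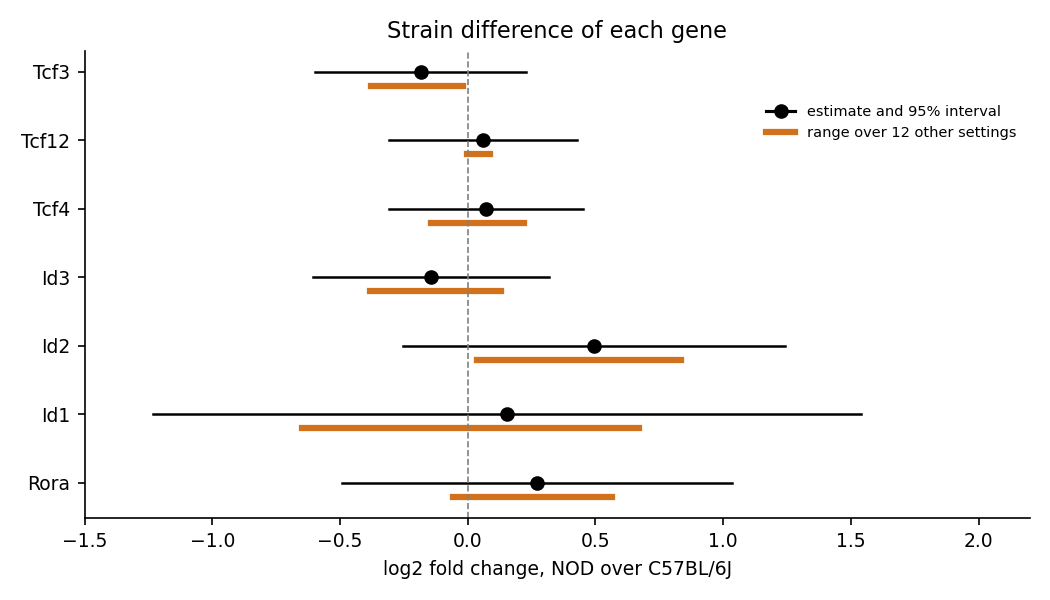
Log2 fold change of NOD over C57BL/6J (horizontal axis) for the 7 genes, with the 95% interval in black and the range over 12 other processing settings in orange. Every interval crosses 0. The intervals of Tcf12 and Tcf4 are the narrowest, and that of Id1, from -1.23 to 1.54, is the widest.

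Both libraries of NOD sample 1, the sample low in proliferation genes, were the highest of the 8 for Id1, Id2 and Rora and the lowest for Tcf3. Mki67, a marker of cycling cells, was at 376 and 269.7 CPM in these libraries and at 2091.1 and 2045.2 CPM in those of NOD sample 2, against 1231.6 to 2189.2 CPM in C57BL/6J libraries. Il7r, the receptor of a survival cytokine and a gene that mature thymocytes regain, was at 17.4 and 17.2 CPM in NOD sample 1 and at 9.19 and 6.91 CPM in NOD sample 2, against 2.72 to 6.3 CPM in C57BL/6J (adjusted p = 0.168, edgeR). The 8 mature single-positive markers summed to 352.9 to 405.7 CPM in NOD libraries and 340 to 396.3 CPM in C57BL/6J libraries. Of the 20 proliferation genes 0 passed the strain test (0 at an unadjusted p under 0.05, 0 in DESeq2), at a median log2 fold change of -0.38, and without NOD sample 1 the median was 0.25. The part of cycling cells in the Id1, Id2, Rora and Tcf3 levels was not tested.

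**Figure D3:**
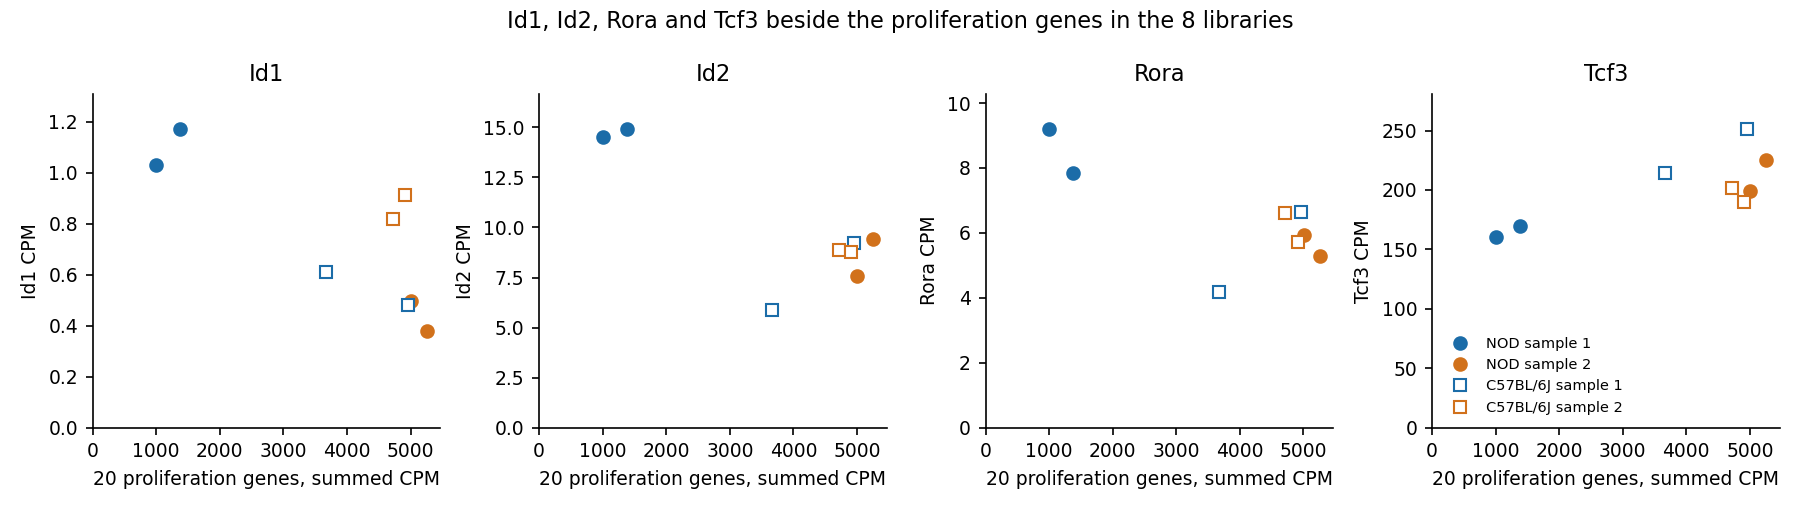
CPM of Id1, Id2, Rora and Tcf3 (vertical axes) against the summed CPM of 20 proliferation genes (horizontal axes) in the 8 libraries. Filled circles are NOD, open squares C57BL/6J, blue sample 1 and orange sample 2. The 2 libraries of NOD sample 1, at 1002.2 and 1378.6 CPM, stand alone at the left, highest for the first 3 genes and lowest for Tcf3.

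Levels of different genes were compared per length, as CPM per kb of the union of annotated exons. Tcf3 was at 41.1 and 52.4 CPM per kb in NOD samples 1 and 2, against 57.4 and 48.9 CPM per kb in C57BL/6J samples 1 and 2. Tcf12 was at 45.5 and 46, against 42.9 and 44.9 CPM per kb, so these 2 did not differ beyond their spread. Id3 followed at 25.4 and 25.1 CPM per kb in NOD and 32.8 and 23.1 CPM per kb in C57BL/6J, below both E protein genes in every sample. Id2 (3.47 to 6.06 CPM per kb in NOD, 3.13 to 3.62 in C57BL/6J) and Tcf4 (2.18 to 2.29 in NOD, 2 to 2.25 in C57BL/6J) came next. Id1 and Rora were lowest, between 0.38 and 0.958 CPM per kb in all 4 samples, and their ranges overlapped.

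The order among the E proteins depends on the length used. The exon union of Tcf4 is 27382 bases and that of Tcf12 is 15529, while their longest coding transcripts have 8577 and 6299 bases. Per kb of the longest coding transcript, a length chosen after the data were seen, Tcf12 (112 and 113 CPM per kb in NOD, 106 and 111 in C57BL/6J) lay above Tcf3 (56.3 and 71.7 in NOD, 78.5 and 66.9 in C57BL/6J) in all 4 samples. On that scale Tcf4 (6.95 to 7.3 in NOD, 6.37 to 7.19 in C57BL/6J) overlapped Id2 (4.29 to 7.51 in NOD, 3.88 to 4.49 in C57BL/6J).

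**Figure D4:**
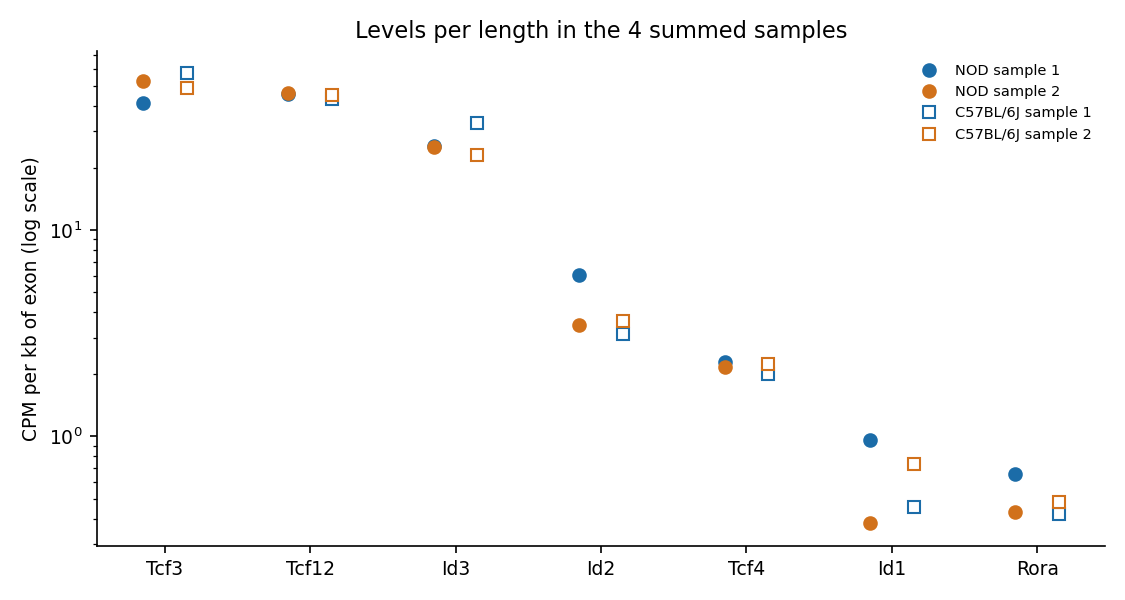
CPM per kb of exon union (log axis) of the 7 genes in the 4 summed samples, NOD filled and C57BL/6J open. Tcf3 and Tcf12 lie together at the top, Id3 below them, and Id1 and Rora at the bottom.

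The balance of Id to E protein transcripts varied more within the strains than between them. The summed level of the 3 Id genes, per kb of exon union, was 0.365 and 0.288 of that of the 3 E protein genes in NOD samples 1 and 2, against 0.355 and 0.286 in C57BL/6J samples 1 and 2. The spread within a strain exceeded the distance between the strain means, 0.327 in NOD and 0.321 in C57BL/6J. The make-up of the Id pool also varied between samples. Id3 made up 78.4% and 86.7% of the Id sum in NOD samples 1 and 2, against 90.1% and 84.1% in C57BL/6J. Id2 made up 18.7% and 12%, against 8.62% and 13.2%, and the largest Id2 share was that of NOD sample 1. Tcf4 was 2.17% to 2.57% of the E protein sum in NOD samples and 1.95% to 2.34% in C57BL/6J samples.

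The 7 genes differ widely in genomic form, and the part of this in their counts was not tested. Id1 (chromosome 2, 152736251 to 152737410, plus strand, GRCm38), Id2 (chromosome 12, 25093799 to 25097140, minus) and Id3 (chromosome 4, 136143497 to 136145755, plus) span 1160, 3342 and 2259 bases. Tcf3 (chromosome 10, 80409514 to 80433647, minus) spans 24134 bases. Tcf12 (chromosome 9, 71842688 to 72111871, minus), Tcf4 (chromosome 18, 69343356 to 69689079, plus) and Rora (chromosome 9, 68653786 to 69388246, plus) span 269184, 345724 and 734461 bases, mostly intron. GENCODE M21 lists 7 unconfirmed transcripts inside introns of Tcf12 on its own strand, none touching a Tcf12 exon. Their counts came to 27%, 32.2%, 21.5% and 10.3% of the Tcf12 counts in the libraries of NOD samples 1 and 2, against 8.15%, 20%, 26.2% and 24.3% in those of C57BL/6J samples 1 and 2. The lowest shares were in library 2 of NOD sample 2 and library 1 of C57BL/6J sample 1. These 2 libraries also had the smallest share of reads outside genes in their strain, 46.561% and 39.979%. Both kinds of share may count intronic reads, so they may not be separate measures. None of the 7 entries passed the strain test (lowest adjusted p = 0.563, edgeR).

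The same 2 libraries held the highest Id3 and the lowest Tcf4 of their strain. Id3 was at 53.43 CPM in library 2 of NOD sample 2, where the other NOD libraries had 37.59 to 45.63 CPM, and at 65.08 CPM in library 1 of C57BL/6J sample 1, where the others had 38.35 to 52.36 CPM. Tcf4 was at 49.76 CPM in the first of these libraries, where the other NOD libraries had 61.75 to 68.26 CPM, and at 50.91 CPM in the second, where the others had 60.94 to 63.12 CPM. Tcf3 was also highest there, at 225.4 and 251 CPM. Set against the other library of the same sample, the remaining genes went in different directions. Id2 was higher in both of these libraries and Id1 was lower in both. The Id1 direction rests on few counts, 10 against 15 in NOD sample 2 and 6 against 6 in C57BL/6J sample 1. Tcf12 and Rora were lower in the library of NOD sample 2 and higher in that of C57BL/6J sample 1. Id3, Tcf4 and Tcf3 were singled out after their values were seen, and the part of the share of reads outside genes in their levels was not tested.

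**Figure D5:**
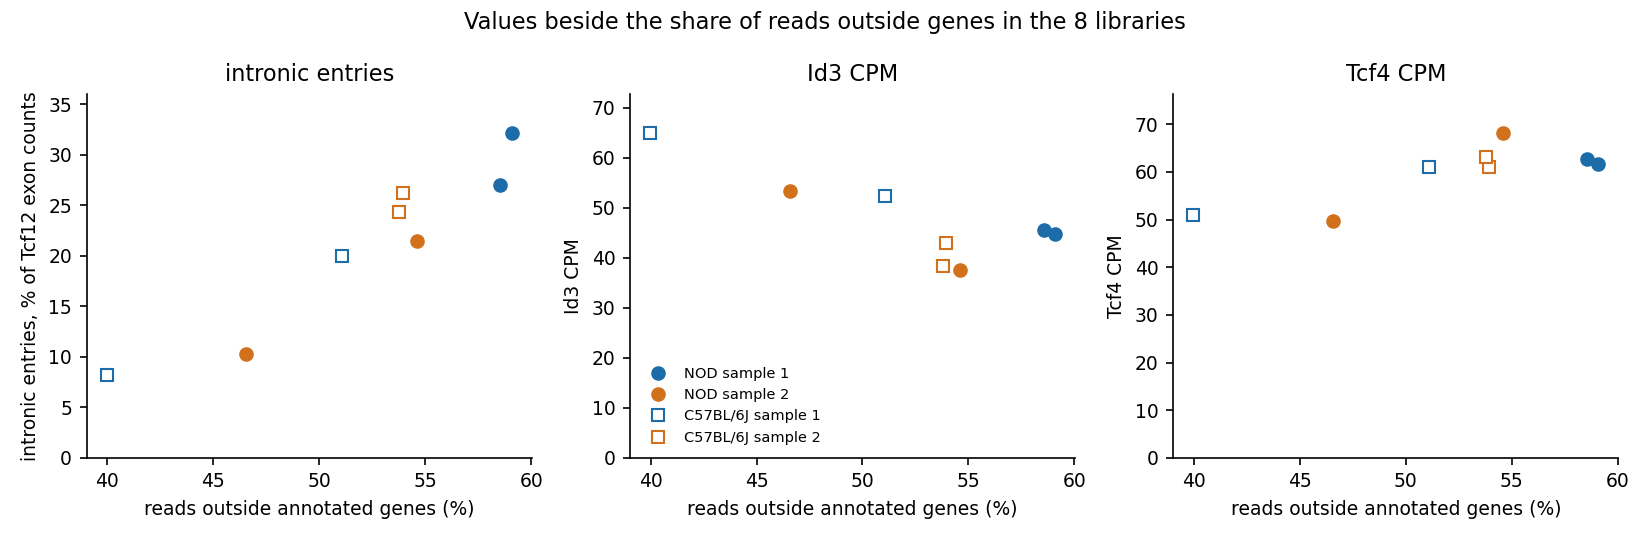
Counts in the 7 intronic entries of Tcf12 as a percentage of Tcf12 counts, Id3 CPM and Tcf4 CPM (vertical axes) in the 8 libraries. Horizontal axes give the percentage of reads assigned to no gene, which may include intronic reads. Filled circles are NOD, open squares C57BL/6J. The NOD library at 46.561% and the C57BL/6J library at 39.979% have the lowest intronic shares, 10.3% in NOD and 8.15% in C57BL/6J, the highest Id3 and the lowest Tcf4 of all 8.

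Genes whose log2(CPM + 1) followed the 7 most closely were named as a description, by Pearson's r over the 8 libraries, which share samples, depth and library make-up. The candidates were 8506 genes with a mean of at least 10 CPM. The 3 closest to Tcf3 were Psmd3, Rbm8a and Bzw2 (r = 0.988 to 0.991), and the 3 closest to Id3 were Timm13, Bckdha and Scand1 (0.982 to 0.991). For Tcf4 they were Dennd1a, Fbxl20 and D930016D06Rik (0.947 to 0.968), and the first 2 for Tcf12 were Fem1c and Rpgrip1l (0.925 and 0.922). Id2 was followed by Gm43352, Tdrp and Basp1 (0.946 to 0.966) and Rora by Tes, Tsc22d1 and Gm43352 (0.922 to 0.944), so that Gm43352 stood on both lists. Id1 was followed by Stx6, Kpna4 and Zfp953 (0.973 to 0.980). None of these genes passed the strain test.

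Genes that E2A or HEB are known to regulate were followed as a list that includes Rora, and 0 of 21 tested passed the strain test. Their median log2 fold change was -0.14 (-0.04 without NOD sample 1). An unadjusted p under 0.05 was found for 6 of 21, against 13.1% of all genes, and the libraries did not overlap for 9 of 21, with NOD above in 3 and below in 6, against 17.0%. DESeq2 called 2 of these genes, Cdkn1a and Il7r, both higher in NOD, and edgeR without NOD sample 1 called Cdkn1a and Ptcra, also higher. Rag1 and Dntt, which encode the recombinase subunit and the polymerase that adds bases at receptor joins, were at 5902 ± 950.3 and 1399 ± 9.816 CPM in NOD, against 8998 ± 795.7 and 2001 ± 267.2 CPM in C57BL/6J (mean ± SD, n = 2 samples; adjusted p = 0.217 and 0.226, edgeR). Bcl11b, a T lineage factor, averaged 1924 ± 129.8 CPM in NOD and 1738 ± 85.77 CPM in C57BL/6J (adjusted p = 0.845, edgeR). Ets1 averaged 1319 ± 41.12 and 1447 ± 83.65 CPM (adjusted p = 0.855, edgeR).

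Of 23 listed partners and cofactors, 11 had enough counts to be tested and 0 passed (2 at an unadjusted p under 0.05, 0 in DESeq2), at a median log2 fold change of -0.05 (0.03 without NOD sample 1). Both at an unadjusted p under 0.05, named after their values were seen, had all NOD libraries above: Lmo4, a LIM adaptor, averaged 61.3 ± 2.313 CPM in NOD and 41.87 ± 5.443 CPM in C57BL/6J (log2 fold change 0.55 ± 0.18, adjusted p = 0.175, edgeR), and Bhlhe40, a repressor, 0.908 ± 0.287 and 0.359 ± 0.0081 CPM (1.33 ± 0.57, adjusted p = 0.358, edgeR). Tal1 and Lyl1, partners that form heterodimers with E proteins in early progenitors, were among the 12 without enough counts. The acetyltransferase genes Crebbp and Ep300 averaged 703.8 ± 30.37 and 422.8 ± 41.32 CPM in NOD, against 767.6 ± 66.11 and 440 ± 56.66 CPM in C57BL/6J (adjusted p = 0.862 and 0.943, edgeR). Ldb1, a bridging factor, averaged 206.3 ± 7.646 and 191.3 ± 23.86 CPM (adjusted p = 0.880), and the corepressor gene Cbfa2t3 136.3 ± 4.723 and 134 ± 4.259 CPM (adjusted p = 0.972, edgeR).

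Signals known to induce Id genes gave 0 of 20 tested genes past the threshold in edgeR, 1 at an unadjusted p under 0.05, with a median log2 fold change of 0.07 (-0.04 without NOD sample 1). DESeq2 called 1, the BMP receptor gene Bmpr2, higher in NOD. Egr1, an early factor that acts on Id3, averaged 130.5 ± 25.28 CPM in NOD and 122.2 ± 1.207 CPM in C57BL/6J (adjusted p = 0.906, edgeR). Nfatc1, a calcium-dependent factor, averaged 144.7 ± 3.814 and 140.7 ± 2.603 CPM, and Tgfbr1, a TGF-beta receptor, 103.4 ± 12.56 and 102.1 ± 8.772 CPM (adjusted p = 0.954 and 0.982, edgeR). Smad4, the shared mediator of BMP and TGF-beta signals, averaged 85.43 ± 2.185 and 103.7 ± 1.07 CPM, with all 4 NOD libraries below those of C57BL/6J, and did not pass (adjusted p = 0.547, edgeR). A list of 12 genes held ubiquitin pathway genes tied to Id or E protein stability, the receptor gene Notch1 and Cdh1, the E-cadherin gene, and 0 of 12 passed (0 at an unadjusted p under 0.05, 0 in DESeq2), at a median of -0.05 (0.07 without NOD sample 1). Usp1, known to stabilise Id proteins by removing ubiquitin, averaged 131.6 ± 60.42 CPM in NOD and 165.7 ± 12.64 CPM in C57BL/6J (log2 fold change -0.33, adjusted p = 0.778, edgeR), and its log2 fold change without NOD sample 1 was 0.07. Huwe1, Usp34 and Notch1 had adjusted p-values of 0.951, 0.996 and 0.805, and the log2 fold change of Notch1 was -0.26 with and 0.09 without NOD sample 1.

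A further list joined survival genes of double-positive cells with ROR targets of the IL-17 lineage, so it is not a list of ROR targets alone. Of its 14 tested genes 0 passed (1 at an unadjusted p under 0.05, 0 in DESeq2). Their median log2 fold change was 0.07 (0.0048 without NOD sample 1). The gene at that unadjusted p was Bcl2, an anti-apoptotic gene that averaged 43.67 ± 6.336 CPM in NOD and 26.89 ± 5.42 CPM in C57BL/6J, with all NOD libraries above (log2 fold change 0.70 ± 0.22, adjusted p = 0.148, edgeR). Tcf7, the gene of TCF-1, averaged 3200 ± 198.6 CPM in NOD and 4027 ± 125.8 CPM in C57BL/6J, with all NOD libraries below, but did not pass (log2 fold change -0.33 ± 0.18, adjusted p = 0.544, edgeR). Myb, Lef1 and Mcl1, an anti-apoptotic gene, had adjusted p-values of 0.945, 0.595 and 0.843. The IL-17 lineage genes Il17a, Il17f and Il23r lacked the counts to be tested. Of 16 tested clock genes 0 passed in edgeR, 4 had an unadjusted p under 0.05 and DESeq2 called 1, Npas2, higher in NOD. Their median log2 fold change was 0.21 (0.04 without NOD sample 1), and their libraries did not overlap for 6 of 16, with NOD above in 5 and below in 1, against 17.0% of all genes. Arntl, activated by ROR receptors through their element, averaged 159.9 ± 16.56 CPM in NOD and 184 ± 35.24 CPM in C57BL/6J (adjusted p = 0.775, edgeR), Nr1d2, a repressor at the same element, 38.29 ± 9.555 and 29.15 ± 0.6948 CPM (adjusted p = 0.540), and Cry1 and Per1 had adjusted p-values of 0.734 and 0.641.

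Few neighbours of the 7 genes passed the test. Of 113 tested genes starting within 500 kb of one of the 7 starts, 1 was higher and 1 lower in NOD, or 1.77%, against 3.68% of all tested genes. They were Trib3, near Id1, with a log2 fold change of 2.63 ± 0.49 SE (adjusted p = 0.0189, edgeR), and Myzap, near Tcf12, with -5.37 ± 0.35 SE (adjusted p = 5.97e-05, edgeR). The window of Tcf4 held no tested gene beside it.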

How the data were processed

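RNA of sorted CD4+ CD8+ thymocytes was measured in 4 NOD and 4 C57BL/6J libraries. The authors deposited raw read counts per Ensembl gene, 1 table per library, without normalization; the submitters' processing notes name STAR 2.5.0a, HTSeq 0.6.1 and GRCm38. Annotation release, strand setting and read filters are not given in the sources used here. Of 53465 genes, 53360 matched GENCODE M21 (primary assembly). Closing counter lines, among them the reads assigned to no gene (39.979% to 59.081%), were left out of library sizes and tests.

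Libraries of 1 strain with the same B number were added together; the 2 libraries of a sample differed beyond counting noise for 18.49% to 57.83% of genes, so none was a duplicate. After adding, NOD had 47.237 and 55.647 M reads in genes and C57BL/6J 23.81 and 24.229 M, so C57BL/6J had less depth. With NOD thinned to C57BL/6J depth, 584 genes were called, against 637 without thinning. Genes passing filterByExpr were scaled by TMM and tested with edgeR 4.0.16 (glmQLFit robust, strain only, 2 residual degrees of freedom, R 4.3.3), two-sided, with Benjamini-Hochberg adjustment over all tested genes. SE is the absolute log2 fold change over the square root of F, and 95% intervals use its total degrees of freedom. Alternatives used RLE factors, DESeq2 1.42.0, no filter, a replicate block, thinned counts, single T numbers, 8 libraries as samples, and each sample left out. The fit was tested on simulated data.

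Members and lists were chosen with earlier results of these data known. Named were the 7 members, their family genes, called genes of each list and otherwise its 4 highest by mean CPM, and the 3 closest genes per member; Trib3 and Myzap, the called neighbours, and Il7r, Ptcra, Cdkn1a, Npas2, Bmpr2, Lmo4, Bhlhe40, Bcl2, Cdh1, Siglech and other markers were named after their values were seen. A few named genes are not reported here.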

Additional observations from a re-analysis of the deposited data

Results flagged for a closer look

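Id2 in library 2 of C57BL/6J sample 1 was at 5.9 CPM, farther below the other 3 libraries of its strain (8.788 to 9.206 CPM) than a set of 4 values usually spreads. Chance flags about 1 in 20 such groups.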

How the results depend on the processing

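None of the 7 genes passed the threshold under any of the 12 alternatives, while the count of called genes over the whole table, 637, was 256 to 1389 with 1 sample left out, 1188 without a filter on low counts, 342 with T number 2 libraries only and 1535 with 8 libraries as samples. The paired fit with the B number as a replicate block called 513 genes, 0 of them among the 7. Same-numbered samples deviated from their strain means with r = -0.123 over 17291 genes. With 2 samples per strain, this value cannot decide whether same-numbered samples share anything beyond the number. Some estimates changed sign: with 1 sample left out, the log2 fold change of Tcf4 ranged from -0.017 to 0.153, that of Id3 from -0.383 to 0.125, that of Rora from -0.059 to 0.534 and that of Id1 from -0.65 to 0.67; with T number 2 libraries only, Tcf4 had -0.14, Tcf12 -0.004, Id1 -0.10 and Id3 0.129. The cause was not tested. The Id to E protein ratio was 0.0602 in NOD and 0.0617 in C57BL/6J without division by length, and 0.229 and 0.233 per kb of the longest coding transcript, a setting added after the data were seen. The printed intervals are not limits of detection, since they are not adjusted for the number of genes tested. With 2 samples per strain, a gene whose interval excludes 0 can still miss the threshold. Bcl2, with an interval of 0.212 to 1.186, did so (adjusted p = 0.148, edgeR).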

Other observations

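Among the lists followed here, 3 genes had an adjusted p between 0.05 and 0.1 in edgeR, and they were named after their values were seen. Cdkn1a, the cell cycle inhibitor p21 and an E protein target, was at 3.48 to 10.6 CPM in NOD libraries and 0.126 to 1.6 CPM in C57BL/6J libraries, with a log2 fold change of 3.395 ± 0.744 SE (adjusted p = 0.0614; 2.755e-11 to 0.160 over 12 alternatives, of which 7 called it). Within NOD it was higher in sample 2, the sample with more proliferation gene counts. Npas2, a clock gene with ROR elements, was at 12.5 to 17 CPM in NOD and 6.08 to 7.62 CPM in C57BL/6J (1.13 ± 0.27, adjusted p = 0.0585; 0.00108 to 0.404 over 12 alternatives, of which 4 called it). Bmpr2, a receptor of the BMP signals that induce Id genes, was at 31.2 to 37 CPM in NOD and 17.4 to 20.9 CPM in C57BL/6J (0.85 ± 0.20, adjusted p = 0.0578; 0.00065 to 0.444 over 12 alternatives, of which 4 called it). All 4 NOD libraries lay above all 4 C57BL/6J libraries for each of the 3.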
